A study of Mus musculus with 22 samples.

Results

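The genes described here are the 10 core genes of the mammalian circadian clock, chosen by gene symbol: the activators Arntl, Clock and Npas2, the period genes Per1, Per2 and Per3, the cryptochromes Cry1 and Cry2, and the REV-ERB receptors Nr1d1 and Nr1d2. Each symbol matched 1 of the 53379 genes in the count table, and 10 of 10 passed the filter on low counts, which kept 40714 genes. A second list of 25 clock-associated genes (further activators and repressors, PAR bZIP factors, kinases and ubiquitin ligases, and output genes) was measured beside them.

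The data were mRNAseq counts from nuclei of the hippocampus of adult male C57/BL6N mice, which arrived at 8 weeks of age, were acclimatized for 4 weeks and lived under 12-h light and 12-h dark phases. Mice received either 70 nl of 20 mM kainate, an agonist of glutamate receptors that triggers status epilepticus, or the same procedure with 0.9% sodium chloride (sham), above the right hippocampus. The left hippocampus, contralateral to the injection, was taken 24 h after status epilepticus, as the design text, the sample titles and the study's methods have it; the extraction protocol in the labels names the right side instead. Kainate mice were kept in the study only if they had convulsive seizures, so the kainate groups hold responders. The 8 mice of each treatment were pooled into 3 samples of 4, 2 and 2 mice, and nuclei were sorted for the neuronal nuclear antigen NeuN. Nuclei that carried it (NeuN+) are called neurons here and those that did not (NeuN-) glia, although the second fraction may also hold vascular cells. The 4 groups were sham neurons (3 libraries), kainate neurons (3), sham glia (2, numbered 1 and 3) and kainate glia (3). The hour of day of injection or of death was not given in the sources used here.

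The core clock is a loop of transcription and translation that runs in nearly every cell. BMAL1 (the product of Arntl) pairs with CLOCK or NPAS2 and activates genes that carry E-boxes, among them the Per and Cry genes. PER and CRY proteins then return to the nucleus and inhibit that pair, while the REV-ERB receptors, encoded by Nr1d1 and Nr1d2, repress Arntl through ROR elements. In a second arm, the PAR bZIP factors DBP, TEF and HLF activate D-boxes, where the repressor NFIL3 (E4BP4) competes with them. Transcripts of these genes rise and fall over the day, with Arntl in opposite phase to Nr1d1 and Dbp, and some clock genes, Per1 above all, also respond acutely to neuronal activity through cAMP response elements (CREs). The data described here come from 1 time point, so a difference in level and a difference in phase cannot be told apart.

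The promoters of 4 genes called for kainate in the paired test described further on are shown to make these elements visible. Each is the RefSeq window from 250 bases before to 50 bases after the annotated start, on GRCm38.p6, in lower case, with matches to the motifs in capitals. The motifs searched on both strands were the E-box CACGTG, the E-prime box CACGTT, the D-box TTATGTAA, the ROR element core TAGGTCA and the CRE TGACGTCA.
Per3, chr4:151044616-151044915, minus strand: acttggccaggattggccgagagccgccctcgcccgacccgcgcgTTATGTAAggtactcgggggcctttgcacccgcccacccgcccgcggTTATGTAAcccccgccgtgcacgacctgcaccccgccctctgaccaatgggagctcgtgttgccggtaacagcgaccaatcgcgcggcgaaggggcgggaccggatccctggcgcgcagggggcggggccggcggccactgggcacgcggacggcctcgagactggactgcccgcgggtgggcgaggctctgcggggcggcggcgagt
Per1, chr11:69098699-69098998, plus strand: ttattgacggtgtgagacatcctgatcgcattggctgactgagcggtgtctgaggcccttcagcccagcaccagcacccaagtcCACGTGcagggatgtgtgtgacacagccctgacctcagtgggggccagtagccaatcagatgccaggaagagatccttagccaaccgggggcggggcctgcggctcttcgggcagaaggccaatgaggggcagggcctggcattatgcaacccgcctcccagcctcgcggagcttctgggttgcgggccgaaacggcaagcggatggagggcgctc
Cry1, chr10:85185005-85185304, minus strand: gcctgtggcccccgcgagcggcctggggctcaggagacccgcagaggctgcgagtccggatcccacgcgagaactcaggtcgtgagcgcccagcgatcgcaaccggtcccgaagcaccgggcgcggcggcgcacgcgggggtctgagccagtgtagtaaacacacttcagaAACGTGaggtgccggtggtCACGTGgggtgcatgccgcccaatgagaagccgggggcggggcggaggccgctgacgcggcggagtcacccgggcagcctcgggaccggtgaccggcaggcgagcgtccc
Nfil3, chr13:52980990-52981289, minus strand: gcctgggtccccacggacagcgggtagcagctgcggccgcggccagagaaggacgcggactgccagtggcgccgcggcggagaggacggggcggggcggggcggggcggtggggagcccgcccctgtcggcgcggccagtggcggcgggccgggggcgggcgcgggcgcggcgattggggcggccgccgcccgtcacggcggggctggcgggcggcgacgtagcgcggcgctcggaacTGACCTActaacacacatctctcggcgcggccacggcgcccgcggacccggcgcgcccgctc

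In the Per3 window, 2 D-boxes in the forward orientation began 205 and 158 bases before the start. A window with at least 1 D-box was found for 0.938% of the 32851 RefSeq windows, and 7 windows (0.0213%) held at least 2. The E-box of the Per1 window shown, 1 of 2 windows of that gene, began 166 bases before the start, and the other window held none of the motifs. Cry1 held an E-box 60 bases and a reverse E-prime box 79 bases before the start. For comparison, E-boxes were present in 7.15% and E-prime boxes in 4.68% of all windows. Nfil3 held a reverse ROR element core 12 bases before the start, and Arntl held one 31 bases after the start in 1 of its 2 windows (2.61% of all windows). Of the 9 core genes with a window, 2 held an E-box, 3 an E-prime box, 1 a D-box, 1 a ROR element core and 0 a CRE. Per2 and Bhlhe40 had no window. A match of letters is a description of these 300 bases and says nothing about occupancy in these nuclei.

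Total counts ranged from 12058875 to 45428465 per library, and 69.6 to 93.9% of the genes in the table had at least 1 count. Sham glia library 1 and kainate glia library 2 were made from about 0.05 ng of RNA instead of 1 ng. The sort was visible in marker genes: 6 of 6 neuronal markers were called higher in NeuN+ nuclei, and 6 of 6 astrocyte, 6 of 6 microglial and 5 of 5 oligodendrocyte markers were called lower. Libraries within a group differed broadly. Among the 11983 genes with a mean of at least 10 CPM (counts per 1000000, scaled by the TMM method), 68.9% were higher in library 1 than in library 3 of all 4 groups, and 9 of the 10 core clock genes shared that order, Arntl being the exception. The summed CPM of the 5 oligodendrocyte markers ran from 8319 to 36814 in sham glia and from 4631 to 25862 in kainate glia.

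The first question was whether status epilepticus changed the clock genes in neurons and in glia of the contralateral hippocampus. Per3 was the member with the largest difference in neurons, and in glia Cry1 (2.14-fold higher) and Per3 were about level. Per3 was lower in the kainate library of each same-number pair in both cell types, 2.88-fold in neurons and 2.08-fold in glia. Nr1d1 and Nr1d2 were lower in the same 5 of 5 pairs, with smaller fitted differences. Per1 and Cry1, and by less Clock and Npas2, were higher in 2 of 2 glial pairs, as were 31.5% of all genes tested, and the activators Arntl, Clock and Npas2 were close to sham in neurons. None of these differences passed the threshold, a false discovery rate (FDR) below 0.25, in edgeR's model of the 4 group means. The study, which analysed each cell type alone at the same threshold, listed Per3 as lower in neurons. An edgeR fit of the neurons alone, run here as an alternative, also called Per3. When the library number was added as a block, 2 members were called in neurons and 5 in glia.

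In the model without the block, 0 of 10 members were called for kainate in neurons (background: 0.165% of all genes tested) and 0 of 10 in glia (0.101%). At an unadjusted p below 0.05, 1 member passed in each cell type, Per3 in both, where 2.09% of all genes passed in neurons and 2.05% in glia. DESeq2's Wald test, run as an alternative, called 1 member in neurons (0.816% of all genes) and 0 in glia (0.575%). With the block, the 2 members called in neurons were Per3 and Nr1d1, both lower, and the 5 called in glia were Per3, Nr1d1 and Nr1d2, lower, and Per1 and Cry1, higher. The block called 5.09% of all genes in neurons (3.19% higher and 1.9% lower) and 5.79% in glia (2.93% higher and 2.86% lower), and among genes with a mean of at least 10 CPM, to which all members belong, 12.8% and 15.5%. The block in glia rested on 2 pairs, since kainate glia library 2 has no sham partner and did not contribute. The median log2 fold change of the members was -0.07 in neurons and -0.04 in glia, beside -0.01 and 0.02 for all genes tested.

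**Figure D1:**
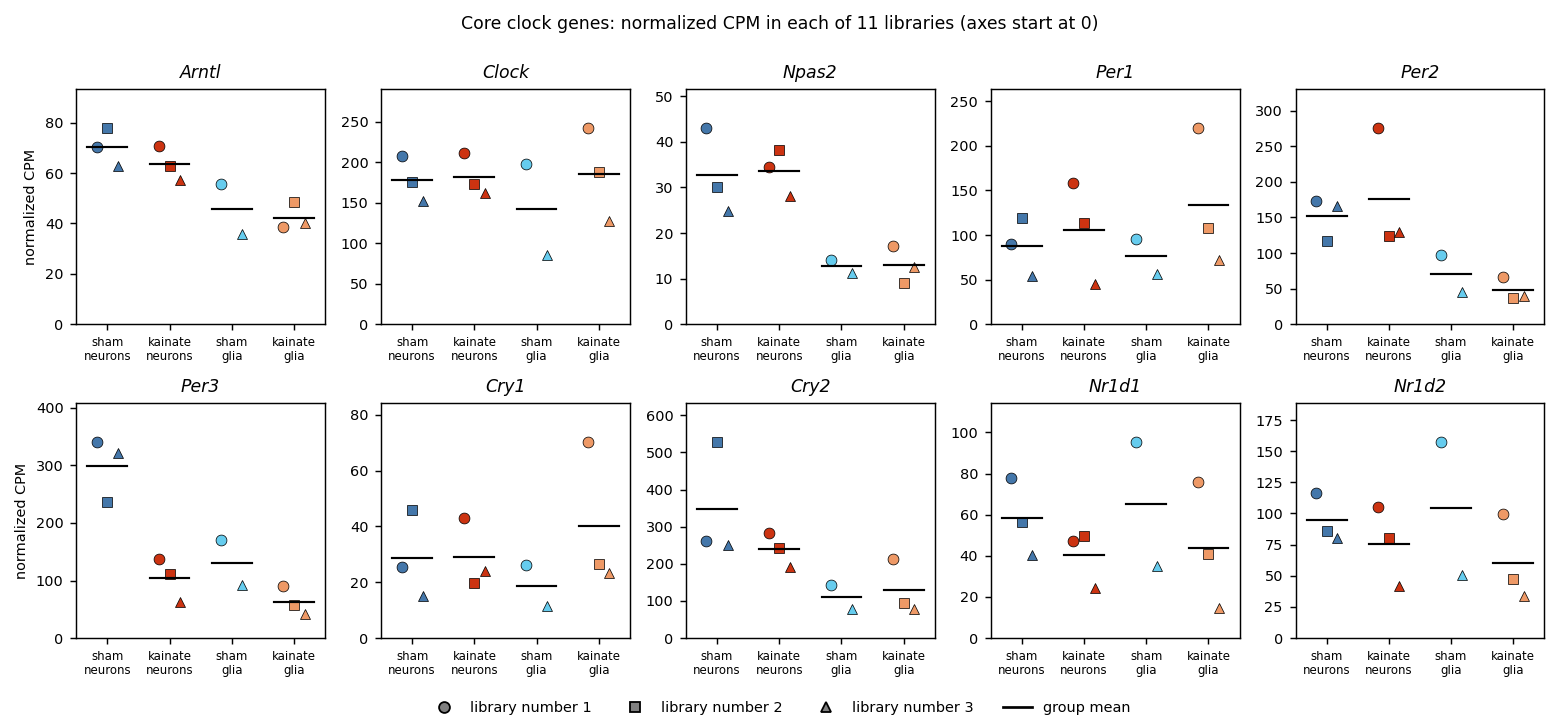
Normalized CPM (vertical axes, starting at 0) of the 10 core clock genes in each of the 11 libraries. Symbols mark the library number, colours the group, and black lines the group mean; the 3 kainate neuron libraries of Per3 (62.6 to 138 CPM) lie below the 3 sham neuron libraries (236 to 340 CPM), whereas the groups of Arntl, Clock and Npas2 overlap within each cell type.

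Per3 (ENSMUSG00000028957, chromosome 4, 151003652 to 151044665 on GRCm38, minus strand) encodes the period protein regarded as the least essential for rhythm. In sham neurons it was measured at 340, 236 and 321 CPM in libraries 1, 2 and 3. The kainate neuron libraries gave 138, 111 and 62.6 CPM. Every kainate library was therefore below every sham library, a complete separation downward that 3.6% of all genes tested showed in neurons. The mean was 299 ± 55.5 CPM (SD, n = 3) in sham and 104 ± 38.1 CPM (SD, n = 3) in kainate neurons, and the fit without the block put Per3 2.88-fold lower (log2 fold change -1.53, SE 0.42, edgeR unadjusted p = 0.00284, FDR = 0.606). With the block the log2 fold change was -1.58 (SE 0.20, edgeR FDR = 7.0e-08). Its FDR ran from 7.0e-08 to 1 over the alternatives, and 6 of 20 called it, among them DESeq2's Wald test (FDR = 0.0333) and the edgeR fit without kainate glia library 3 (FDR = 0.213).

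In glia, Per3 stood at 170 and 91.5 CPM in the sham libraries and at 90.1, 56.8 and 42.2 CPM in the kainate libraries. The groups did not overlap, but sham library 3 and kainate library 1 were nearly level, and 3.52% of all genes were separated downward in this way. Its fitted log2 fold change was -1.05 (SE 0.45, edgeR unadjusted p = 0.0363, FDR = 1) without the block and -1.02 (SE 0.24, edgeR FDR = 0.00612) with it. Without sham glia library 1 the log2 fold change was -0.51, and without sham glia library 3 it was -1.44 (edgeR FDR = 0.24). Each of these fits has 1 sham glia library, which is assumed to vary like the other groups. Without library 3 the one left is that of low RNA input, the median log2 fold change of all genes in glia was 0.76, and 5.53% of them were called higher and 1.06% lower. Without both libraries of low RNA input Per3 was at -0.44 in glia. The kainate effect on Per3 differed between neurons and glia by -0.47 on the log2 scale (SE 0.62, edgeR unadjusted p = 0.461, FDR = 1).

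Per1 (ENSMUSG00000020893, chromosome 11, 69095217 to 69109960, plus strand) encodes a period protein and behaves as an early-response gene in stimulated neurons. Its sham glia libraries had 96.1 and 56.2 CPM. The kainate glia libraries had 220, 108 and 72.6 CPM, so that kainate library 3 lay between the sham values. In the fits for glia Per1 was at 0.81 (SE 0.59, edgeR FDR = 1) without the block and 0.78 (SE 0.24, edgeR FDR = 0.0716) with it, and the block was the only one of the alternatives that called it (highest FDR = 1). Without kainate glia library 1 the log2 fold change was 0.15. Sham neurons had 90.2, 119 and 54.2 CPM and kainate neurons 159, 113 and 45.3 CPM, with overlapping groups and 1 of 3 pairs higher. Its neuronal log2 fold change was 0.27 (SE 0.51, edgeR FDR = 1).

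Per2 (ENSMUSG00000055866, chromosome 1, 91415982 to 91459324, minus strand), which encodes a period protein required for a lasting rhythm, passed no test for kainate. It was measured at 174, 117 and 166 CPM in sham neurons and 275, 124 and 129 CPM in kainate neurons. In glia it was measured at 96.6 and 45.6 CPM in sham and 66.3, 37.2 and 39.3 CPM in kainate libraries. The groups overlapped in both cell types. Its log2 fold change was 0.21 (SE 0.43) in neurons and -0.58 (SE 0.47) in glia, with an edgeR FDR of 1 in both, and the sign differed among the alternatives in each.

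Cry1 (ENSMUSG00000020038, chromosome 10, 85131700 to 85185064, minus strand) encodes a strong repressor of the BMAL1 and CLOCK pair. Sham glia had 26 and 11.4 CPM, and kainate glia 70.2, 26.6 and 23.4 CPM. Sham library 1 fell within the kainate range, so the groups overlapped, while the kainate member of each same-number pair was higher. Cry1 was at a log2 fold change of 1.10 (SE 0.62, edgeR FDR = 1) without the block and 1.24 (SE 0.30, edgeR FDR = 0.00873) with it; no other alternative called it (highest FDR = 1). On leaving out 1 library it ran from 0.30 without kainate glia library 1 to 1.85 without sham glia library 1. In neurons, the sham libraries had 25.3, 45.8 and 15.2 CPM and the kainate libraries 43.1, 19.6 and 24 CPM. Pairs 1 and 3 were higher and pair 2 was lower there, and the fitted difference was 0.0041 (SE 0.53, edgeR FDR = 1). The test of the difference between the effects in neurons and glia called 0 of 10 members without a block (0.00246% of all genes), 0 at an unadjusted p below 0.05 (0.909%), 0 with DESeq2 (0.0664%), 1, Cry1, with the number as a block (1.94% of all genes) and 0 with the pool as a block (0.0221%). For Cry1 the difference was -1.10 (SE 0.81, edgeR FDR = 1) without a block, -1.17 (SE 0.39, edgeR FDR = 0.23) with the number as a block in each cell type and -0.56 (edgeR FDR = 1) with the pool as a block. It was -0.36 without kainate glia library 1 and -1.84 without sham glia library 1, in the fit without a block.

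Cry2 (ENSMUSG00000068742, chromosome 2, 92403646 to 92434043, minus strand), the other cryptochrome, had 261, 528 and 251 CPM in sham neurons and 283, 242 and 192 CPM in kainate neurons. Sham library 2 stood well above the other 5 neuronal libraries. Its log2 fold change in neurons was -0.53 (SE 0.46, edgeR FDR = 1), and with the block -0.46 (SE 0.19, edgeR FDR = 0.339). Without sham library 2 it was -0.096. In glia it had 143 and 79.5 CPM in sham and 214, 94 and 78 CPM in kainate libraries, with overlapping groups and a log2 fold change of 0.21 (SE 0.52, edgeR FDR = 1). This glial value changed sign on leaving out 1 library, from -0.49 to 0.72.

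Nr1d1 (ENSMUSG00000020889, chromosome 11, 98767932 to 98775333, minus strand) encodes REV-ERB alpha, the repressor of Arntl. In neurons it was measured at 77.7, 56.6 and 40.3 CPM in sham and 47.1, 49.4 and 24.5 CPM in kainate libraries. The groups overlapped, but 3 of 3 pairs were lower under kainate. Nr1d1 differed by -0.53 on the log2 scale (SE 0.55, edgeR FDR = 1) without and -0.54 (SE 0.20, edgeR FDR = 0.197) with the block. Glia gave 95.3 and 35 CPM in sham and 75.8, 40.9 and 14.8 CPM in kainate libraries, again overlapping. Its glial difference was -0.57 (SE 0.60, edgeR FDR = 1) without and -0.78 (SE 0.25, edgeR FDR = 0.0812) with the block. The sum of its exons overlaps that of Thra on the opposite strand over 263 bases (8.55% of its exonic length), and since the libraries were not strand-marked, reads there cannot be assigned to either gene.

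Nr1d2 (ENSMUSG00000021775, chromosome 14, 18204054 to 18239127, minus strand) encodes the related receptor REV-ERB beta. It had 117, 86 and 80.5 CPM in sham neurons and 105, 80 and 41.8 CPM in kainate neurons. In glia the sham libraries had 157 and 50.9 CPM and the kainate libraries 99.3, 47.8 and 33.6 CPM. The groups overlapped in both cell types, and each of the 5 pairs was lower under kainate. Nr1d2 differed by -0.32 on the log2 scale (SE 0.50, edgeR FDR = 1) in neurons and -0.79 (SE 0.55, edgeR FDR = 1) in glia, and with the block it was -0.40 (SE 0.19, edgeR FDR = 0.499) and -0.63 (SE 0.23, edgeR FDR = 0.183). Sham glia library 1 was the highest for both REV-ERB genes, and without it the glial log2 fold change was 0.35 for Nr1d1 and 0.27 for Nr1d2. It was -1.34 and -1.49 without kainate glia library 1, and -1.39 for Nr1d2 without sham glia library 3.

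The activators showed little difference in neurons. In glia the value of Clock depended on the libraries kept, from -0.10 to 1.14 on leaving out 1 library. Arntl (ENSMUSG00000055116, chromosome 7, 113207465 to 113314126, plus strand) had 70.2, 77.7 and 62.7 CPM in sham neurons and 70.6, 62.9 and 57.2 CPM in kainate neurons, and 55.7 and 35.9 against 38.6, 48.4 and 40.1 CPM in glia. Clock (ENSMUSG00000029238, chromosome 5, 76209868 to 76304792, minus strand) had 208, 176 and 152 CPM in sham and 211, 173 and 162 CPM in kainate neurons, and 198 and 85.7 against 242, 188 and 127 CPM in glia. Npas2 (ENSMUSG00000026077, chromosome 1, 39193731 to 39363236, plus strand), a relative of Clock that can take its place, had 43, 30.1 and 24.8 CPM in sham and 34.6, 38.3 and 28.2 CPM in kainate neurons, and 14.2 and 11.3 against 17.2, 9.06 and 12.5 CPM in glia. Sham and kainate libraries overlapped for the 3 activators in both cell types. Their log2 fold changes lay between -0.14 and 0.05 in neurons, with SEs from 0.30 to 0.38, and between -0.11 and 0.39 in glia, and no alternative called any of them.

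**Figure D2:**
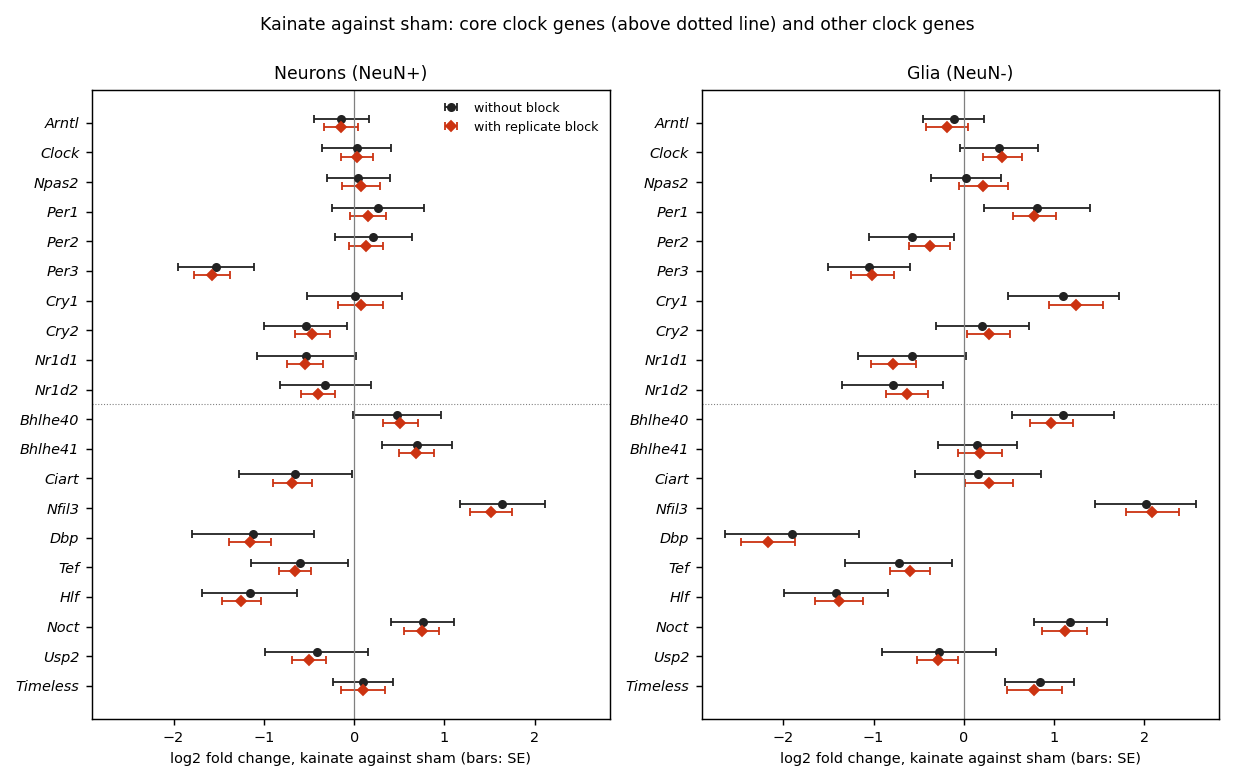
Log2 fold change of kainate against sham (horizontal axis) in neurons and glia for the 10 core clock genes and for 10 other clock genes called with the block in either cell type. Black circles are the edgeR fit without a block and red diamonds the fit with the library number as a block; bars are 1 SE, and the values of Per3, Dbp and Hlf lie below 0 and those of Nfil3 and Noct above 0 by more than 1 SE in both panels.

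The other clock genes showed the same division between the 2 fits: 0 of 25 were called in neurons and 0 of 25 in glia without the block, 3 and 5 passed at an unadjusted p below 0.05, and DESeq2 called 1 in each. Of all genes tested, 0.165% and 0.101% were called without the block, 2.09% and 2.05% passed at that p, and DESeq2 called 0.816% and 0.575%. With the block, 4 were called higher and 5 lower in neurons, and 4 higher and 3 lower in glia. The block called 3.19% of all genes higher and 1.9% lower in neurons, and 2.93% and 2.86% in glia. Among genes with a mean of at least 10 CPM it called 12.8% and 15.5%. Bhlhe40, Nfil3 and Noct were called higher, and Dbp, Tef and Hlf lower, in both cell types. Bhlhe41 was called higher and Ciart and Usp2 lower in neurons, and Timeless was called higher in glia. The kinases and ubiquitin ligases that set the stability of PER and CRY proteins (Csnk1d, Csnk1e, Gsk3b, Fbxl21, Btrc and Fbxw11) were called in neither cell type by either fit.

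Nfil3, which encodes the D-box repressor, had 13.6, 10.8 and 9.7 CPM in sham neurons and 45.8, 44.1 and 16.1 CPM in kainate neurons. In glia it had 12.1 and 5.26 CPM in sham and 51.1, 31.6 and 22.6 CPM in kainate libraries. Kainate libraries were above all sham libraries in both cell types, a separation upward shown by 4.26% of all genes in neurons and 4.7% in glia. The log2 fold change was 1.64 (SE 0.47, edgeR FDR = 0.728) in neurons and 2.01 (SE 0.56, edgeR FDR = 0.981) in glia without the block. With it the values were 1.52 (edgeR FDR = 7.3e-06) and 2.09 (edgeR FDR = 1.1e-06), and DESeq2's FDR was 0.103 and 0.0738. On leaving out 1 library the log2 fold change without the block ran from 1.41 to 1.99 in neurons. In glia it ran from 1.52 to 2.77, the highest being without sham glia library 1.

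The PAR bZIP genes, which encode the D-box activators, lay on the other side. Dbp had 83.5, 35.9 and 32 CPM in sham neurons and 36.6, 22.4 and 10.5 CPM in kainate neurons. Its glial values were 49.3 and 17.2 CPM in sham and 17.4, 7.19 and 2.25 CPM in kainate libraries. The groups overlapped, in glia only by 17.4 against 17.2 CPM. Its log2 fold change was -1.12 (SE 0.67) in neurons and -1.90 (SE 0.74) in glia, with an edgeR FDR of 1 in both, and with the block -1.15 (edgeR FDR = 0.000566) and -2.17 (edgeR FDR = 8.3e-07). Without sham neuron library 1 the neuronal value was -0.55. The glial value was -0.92 without sham glia library 1 and -2.93 without kainate glia library 1; without sham glia library 3, with 1 sham glia library left, Dbp was called without a block (-2.48, edgeR FDR = 0.236). A stretch of 539 bases, 18% of the exonic length of Dbp, overlaps exons of Sphk2 on the opposite strand.

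Hlf had 72.4, 47.6 and 31.8 CPM in sham neurons and 33, 25.8 and 9.37 CPM in kainate neurons. In glia it had 44.8 and 18.1 CPM in sham and 17.8, 11 and 6.72 CPM in kainate libraries. The neuronal groups overlapped by 33 against 31.8 CPM, and the glial groups were separated by 18.1 against 17.8 CPM. Its log2 fold change was -1.16 (SE 0.53) in neurons and -1.41 (SE 0.58) in glia, with an edgeR FDR of 1 in both, and with the block -1.25 (edgeR FDR = 4.9e-05) and -1.38 (edgeR FDR = 0.000449). Its glial value was -0.59 without sham glia library 1, and without sham glia library 3, again with 1 sham glia library left, it was called without a block (-1.93, edgeR FDR = 0.236).

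Tef was the most abundant of the 3 in CPM, at 467, 344 and 297 CPM in sham and 330, 252 and 147 CPM in kainate neurons. In glia it had 431 and 135 CPM in sham and 303, 128 and 84.4 CPM in kainate libraries. The groups overlapped in both cell types, and its log2 fold change with the block was -0.66 (edgeR FDR = 0.0239) in neurons and -0.59 (edgeR FDR = 0.182) in glia. Without the block, Tef was at -0.61 (SE 0.54) and -0.72 (SE 0.59), with an edgeR FDR of 1 in both. The glial direction turned without sham glia library 1 (0.37) and without both libraries of low RNA input (0.54), and the value was -1.33 without sham glia library 3 and -1.55 without kainate glia library 1.

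Noct, which encodes the rhythmic phosphatase nocturnin, had 65.1, 42.3 and 42.2 CPM in sham neurons and 109, 84 and 59.7 CPM in kainate neurons. Its glial values were 16.6 and 17.4 CPM in sham and 47.4, 39.4 and 28.7 CPM in kainate libraries, so the glial groups were separated. Its log2 fold change was 0.76 (SE 0.35) in neurons and 1.18 (SE 0.40) in glia, with an edgeR FDR of 1 in both, and with the block 0.75 (edgeR FDR = 0.0171) and 1.12 (edgeR FDR = 0.0033). Bhlhe40 and Bhlhe41 encode the repressors DEC1 and DEC2, which compete at E-boxes. With the block, Bhlhe40 was called at 0.51 in neurons (edgeR FDR = 0.212) and 0.97 in glia (edgeR FDR = 0.0103), and Bhlhe41 at 0.69 in neurons (edgeR FDR = 0.0339). Exons of the gene model Gm43909 on the opposite strand overlap 1280 bases (19.05%) of the exonic length of Bhlhe41. In the fit without the block Bhlhe40 was at 1.10 in glia, 0.43 without kainate glia library 1 and 1.75 without sham glia library 1. Ciart, which encodes the repressor CHRONO, was called at -0.69 (edgeR FDR = 0.072) and Usp2, which encodes a deubiquitinase, at -0.50 (edgeR FDR = 0.206) in neurons. Timeless was called at 0.78 in glia (edgeR FDR = 0.236). Over the alternatives, the highest FDR of each of these genes was 1.

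**Figure D3:**
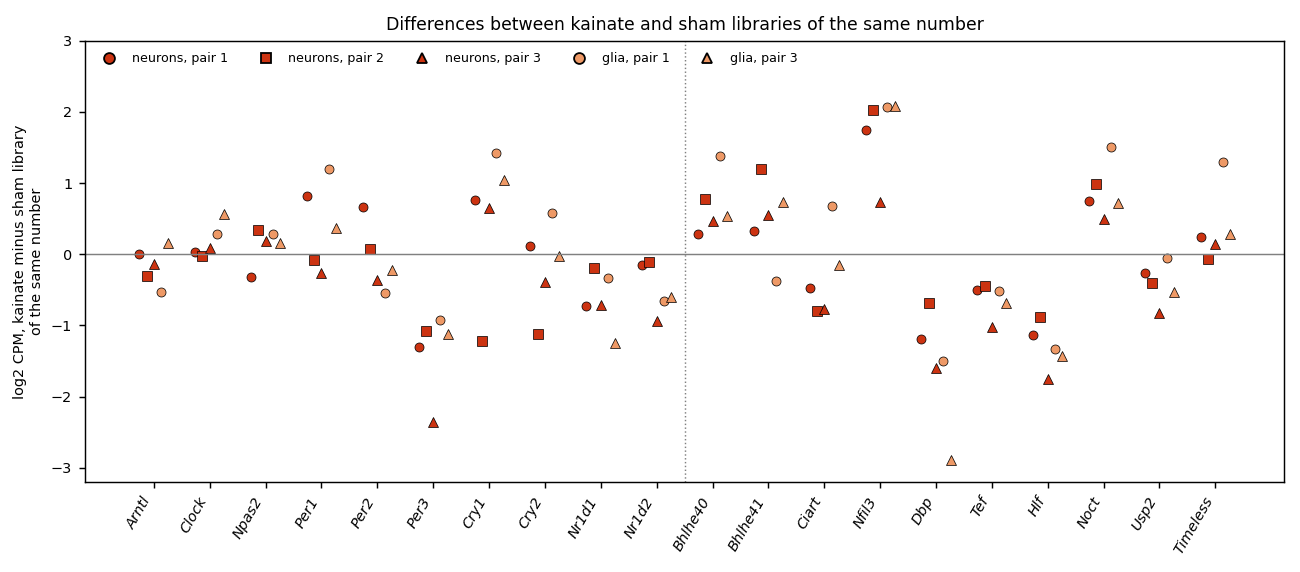
Difference in log2 CPM between the kainate and the sham library of the same number (vertical axis) for 3 neuronal pairs and 2 glial pairs, for the 10 core clock genes (left of the dotted line) and 10 other clock genes. Points of Per3, Nr1d1, Nr1d2, Dbp, Tef, Hlf and Usp2 lie below 0 in 5 of 5 pairs, and points of Bhlhe40, Nfil3 and Noct above 0 in 5 of 5.

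Taken pair by pair, the differences of Per3 on the log2 CPM scale were -1.30, -1.08 and -2.36 in neurons and -0.92 and -1.11 in glia. Nr1d1 gave -0.72, -0.19 and -0.72 in neurons and -0.33 and -1.24 in glia, and Nr1d2 gave -0.15, -0.10 and -0.94 in neurons and -0.66 and -0.60 in glia. These 3 members were lower in 5 of 5 pairs, a pattern shown by 4.59% of all genes tested and by 8.08% of those with a mean of at least 10 CPM, and 0 members were higher in 5 of 5. Among the other clock genes, 4 of 25 were lower in 5 of 5 pairs (Dbp, Tef, Hlf and Usp2) and 4 were higher (Bhlhe40, Nfil3, Noct and Csnk1d), beside 7.16% of all genes tested, and 13.2% of those with a mean of at least 10 CPM, that were higher. Neuronal and glial libraries of the same number and treatment were taken to come from the same pool, so the 5 pairs were not treated as independent.

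Marker levels of other cell types also differed between treatments. In the NeuN+ libraries the summed CPM of the 6 astrocyte markers ran from 170 to 234 in sham and from 252 to 410 in kainate libraries, without overlap, and that of the 6 microglial markers from 44.6 to 67.5 and from 67.4 to 73.2. With the block, 1 of the 6 microglial markers was called higher in neurons, Csf1r (1.12, from a mean of 10.7 CPM in sham to 23.6 CPM in kainate), and 1 lower, P2ry12 (-0.63, edgeR FDR = 0.216). Gfap, an intermediate filament gene of reactive astrocytes, was called higher with the block in both cell types (log2 fold change 1.78 in neurons and 1.77 in glia). The astrocyte markers did not move one way: with the block, 4 of 6 were called higher and 2 lower in neurons, the lower ones being Slc1a3 (-0.65, edgeR FDR = 0.0503) and Gja1 (-0.63, edgeR FDR = 0.107). In glia 1 of 6, Gfap, was called higher and 3 lower, Slc1a2 (-1.12), Slc1a3 (-1.21) and Gja1 (-1.66). Also with the block, 3 of 5 oligodendrocyte, 3 of 3 oligodendrocyte precursor and 2 of 6 microglial markers were called lower in glia. In neurons 1 of 5 oligodendrocyte markers, Mog (-0.51), and 1 of 3 precursor markers, Gpr17 (-1.09), were called lower. Of the 6 neuronal markers, 2 were called higher in neurons, Gad1 (0.61) and Gad2 (0.60), which encode the enzymes that make GABA, and 1, Gad1 (0.87), in glia. None of the 4 endothelial and 3 pericyte markers was called in either. Fewer nuclei of a type and less RNA per nucleus cannot be told apart in these sums, and the part of cell composition in the clock gene values was not tested.

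The second comparison asked where the clock genes are expressed. Of the 10 members, 5 were called higher in NeuN+ than in NeuN- nuclei over both treatments and 0 lower: Per2, Npas2, Cry2, Per3 and Arntl. In the same fit 16.8% of all genes were called higher and 20.4% lower. Among genes with a mean of at least 10 CPM, to which all members belong, 39.4% were called higher and 17.7% lower. With the pool as a block, the members called were again 5 higher and 0 lower, beside 24.9% of all genes called higher and 34.8% lower, and the share of those more abundant genes called higher was 57.5%. The median log2 fold change of the members was 0.38, beside -0.47 for all genes tested. That value for all genes includes those with a mean below 10 CPM, and it turned with 1 library. It was 0.24 without sham glia library 3 and -0.66 without sham glia library 1, each with 1 sham glia library left.

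Per2 had the largest difference, with a log2 fold change of 1.49 (SE 0.33, edgeR FDR = 0.00547). The lowest NeuN+ library of Per2 had 117 CPM and the highest NeuN- library 96.6 CPM. Npas2, known for its expression in the forebrain, followed at 1.37 (SE 0.27, edgeR FDR = 0.00223), with 24.8 to 43 CPM in NeuN+ and 9.06 to 17.2 CPM in NeuN- libraries. Cry2 differed by 1.27 (SE 0.36, edgeR FDR = 0.0232) and Per3 by 0.96 (SE 0.32, edgeR FDR = 0.0527). Arntl differed by 0.60 (SE 0.23, edgeR FDR = 0.0966), with 57.2 CPM in its lowest NeuN+ and 55.7 CPM in its highest NeuN- library. The NeuN+ and NeuN- libraries did not overlap for Per2, Npas2 and Arntl, 3 of 10 members, where 8.92% of all genes were separated upward and 6.31% downward. Each of the 5 called members was higher in the NeuN+ library of 5 of 5 pools that gave both fractions, as were 21.3% of all genes. Libraries of the same number and treatment were taken as 1 pool.

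The remaining members were measured at similar levels in both fractions, with log2 fold changes of 0.15 for Clock (SE 0.29, edgeR FDR = 0.727), 0.09 for Nr1d2 (SE 0.38, edgeR FDR = 0.872), 0.08 for Cry1 (SE 0.40, edgeR FDR = 0.904), -0.07 for Per1 (SE 0.38, edgeR FDR = 0.915) and -0.14 for Nr1d1 (SE 0.41, edgeR FDR = 0.823). A missed threshold does not show that they were equal, and the SEs leave room for differences of the size seen for Arntl. The values depended on the sham glia libraries. With 1 of them left, Arntl was at 0.46 without sham glia library 3. Without sham glia library 1, Clock was at 0.54 and Nr1d2 at 0.64.

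**Figure D4:**
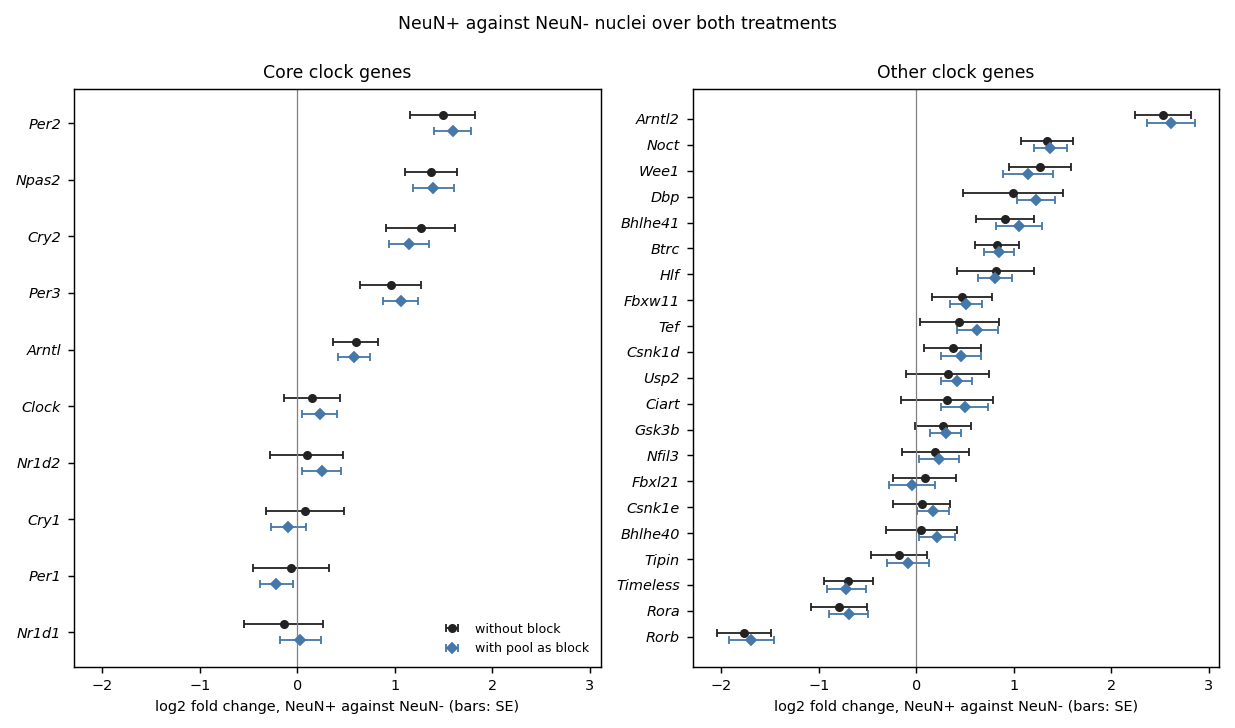
Log2 fold change of NeuN+ against NeuN- nuclei over both treatments (horizontal axis) for the 10 core clock genes (left) and 21 other clock genes (right), with bars of 1 SE. Black circles are the edgeR fit without a block and blue diamonds the fit with the pool as a block; Per2 (1.49) and Npas2 (1.37) lead the core genes, Arntl2 (2.53) the other genes higher in neurons, and Rorb (-1.77) lies farthest on the glial side. The other 4 genes of that list are not drawn.

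Among the other clock genes 11 of 25 were called, 7 higher and 4 lower in NeuN+ nuclei, and with the pool as a block 17, 13 higher and 4 lower. The count was 19 without sham glia library 1 and 7 without sham glia library 3, where 59.8% and 28.7% of all genes were called. Arntl2, a paralogue of Arntl, was the farthest on the neuronal side at 2.53 (SE 0.28, edgeR FDR = 4.2e-05), with 37.7 to 67.5 CPM in NeuN+ and 6.26 to 11.6 CPM in NeuN- libraries. Noct followed at 1.34 (SE 0.27, edgeR FDR = 0.00249). Rorb and Rora, which encode receptors that compete with REV-ERB for ROR elements, lay on the glial side at -1.77 (SE 0.28, edgeR FDR = 0.000402) and -0.79 (SE 0.29, edgeR FDR = 0.079). Rorb had 11.2 to 16.8 CPM in NeuN+ and 26.9 to 70.2 CPM in NeuN- libraries, without overlap.

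Levels of the members were ordered per length, as normalized CPM per kb of exonic length. In sham neurons Cry2 was the highest at 54.8 ± 24.9 CPM per kb (SD, n = 3), followed by Per3 at 31.1 ± 5.78 and Per2 at 26 ± 5.22, and Npas2 was the lowest at 6.81 ± 1.95. In kainate neurons Cry2 was again the highest at 37.8 ± 7.26 CPM per kb (SD, n = 3), with Per2 at 30.1 ± 14.7, while Per3 stood in the seventh place at 10.8 ± 3.96. The order in sham glia began with Nr1d1 at 21.2 ± 13.9 CPM per kb (SD, n = 2), Nr1d2 at 19.2 ± 13.9 and Cry2 at 17.6 ± 7.16, and that in kainate glia with Per1 at 23.7 ± 13.6 (SD, n = 3), Cry2 at 20.3 ± 11.7 and Nr1d1 at 14.2 ± 9.96. Npas2 ended each order, at 2.66 ± 0.433 CPM per kb in sham glia (SD, n = 2) and 2.7 ± 0.858 in kainate glia (SD, n = 3). The neighbouring genes in each of the 3 leading places differed by less than the larger of their SDs, so that the order among them is not resolved.

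Within groups the members varied together. Over the deviations of log2 CPM from the group mean in the 11 libraries, Pearson's r was above 0 in 45 of 45 pairs of members, with a median of 0.68. The most alike were Per3 and Nr1d2 (r = 0.95) and Nr1d1 and Nr1d2 (r = 0.92), then Clock and Nr1d2 (r = 0.92) and Cry1 and Cry2 (r = 0.92), and the least alike were Arntl and Npas2 (r = 0.07). These values are descriptive. The NeuN+ and NeuN- libraries of a number and treatment were taken to share their pool. Most genes with a mean of at least 10 CPM were higher in library 1 than in library 3, as given above.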

How the data were processed

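The authors trimmed the mRNAseq reads with Trim Galore 0.4.3, aligned them to mm10 with Rsubread and counted reads per gene with featureCounts on GENCODE mouse release 16, and the deposited values are these raw counts in 11 libraries, with no normalization. The oligo(dT)-primed libraries did not mark strand. The mice of a pool contributed to 1 library per fraction, and 1 sham glia sample had failed. Which library was sequenced on which instrument was not given in the sources used here, and the bisulfite samples were not analysed here.

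Here 105 genes without a symbol were left out, edgeR's filterByExpr (minimum count 10, minimum total 15) kept 40714, and counts were scaled by TMM. The quasi-likelihood model of edgeR 4.0.16 (R 4.3.3, limma 3.58.1) was fitted to the 4 group means over all libraries, where the study analysed the cell types separately. It gave log2 fold changes with SEs and tested kainate in neurons, in glia, the difference of both and NeuN+ against NeuN- nuclei. P-values were adjusted by Benjamini-Hochberg over all genes tested and called at FDR below 0.25. They measure the spread between pooled samples. DESeq2 1.42.0 was an alternative, and 20 alternative fits were made for each kainate comparison.

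Some of the other clock genes are counted with their list but not reported by name or drawn. The 10 members and all lists were chosen with earlier results of these data known. Beside the 10 members, the other clock genes named with values are those called for kainate with or without the block and the 2 highest and 2 lowest in NeuN+ nuclei. Kainate and sham libraries of the same number deviated together from their group means over all genes (r = 0.64, 0.16 and 0.49 in neurons, and 0.76 and 0.79 in glia), as did both fractions of a pool (r = 0.24 to 0.67), so the numbers were taken to pair the samples. Libraries of different numbers gave r from -0.60 to 0.42 in neurons and from -0.79 to 0.21 in glia. In neurons kainate library 2 was as close to sham library 3 (0.17) as to its own number. The deviations of the 2 sham glia libraries are exact opposites, so each kainate glia library has the same r with both, with opposite sign. The negative glial values therefore add no separate evidence for the pairing. In groups of 3 the deviations sum to 0, which also ties the values together. The pairing is an assumption of the blocked fits. The labels do not say what a number marks, and that both fractions of a number and treatment form 1 pool is also an assumption. The blocked fit uses the number within each cell type for kainate and the pool for NeuN. Genomic positions are from GENCODE release 21 on GRCm38, of which mm10 is a synonym, and promoter windows from RefSeq on GRCm38.p6.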

Additional observations from a re-analysis of the deposited data

Results flagged for a closer look

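The kainate effect on Cry1 differed between the cell types in 1 of the fits: with the library number as a block, the log2 fold change in neurons minus that in glia was -1.17 (SE 0.39, edgeR FDR = 0.23). Cry1 was higher under kainate in 2 of 2 glial pairs and in 2 of 3 neuronal pairs. Without a block the difference was -1.10 and with the pool as a block -0.56, each with an edgeR FDR of 1. Groups of 2 or 3 libraries were too small to be searched for single libraries that stood apart.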

How the results depend on the processing

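At FDR below 0.25, the core clock genes called for kainate in neurons numbered 0 in the fit without a block, 1 (Per3) with DESeq2's Wald test, on raising the filter to 1 CPM in 3 libraries, on fitting each cell type alone and without the 4 libraries numbered 1 (chosen after seeing the data; log2 fold change -1.75), and 2 with the replicate block. Of all genes, 0.165% were called in neurons in the fit without a block, 0.816% with DESeq2, 0.468% with the raised filter, 1.29% in the separate fit and 2.28% without the libraries numbered 1 (1.08% in glia). Leaving out 1 library gave 0 to 1, with 1 only without kainate glia library 3. In glia the count was 0, and 5 with the replicate block, with 0 to 1 on leaving out 1 library, 1 (Per3) only without sham glia library 3. The difference between cell types gave 0, and 1 with the replicate block. For NeuN the count of 5 became 9 without the libraries numbered 1, a fit with 1 sham glia library that called 67.7% of genes with a mean of at least 10 CPM higher (39.4% with all libraries), 7 with the replicate block within each fraction, 6 without both libraries of low RNA input, 3 at FDR below 0.05, and 4 to 7 on leaving out 1 library. Other clock genes called for kainate numbered 0 in neurons, 1 with DESeq2's test and with a separate fit, 3 without the libraries numbered 1 and 9 with the replicate block; in glia 0, 0 with a separate fit (edgeR called 0 of all genes there, with 316 higher and 110 lower at an unadjusted p below 0.05), 1 with DESeq2's test, 2 without the libraries numbered 1 and 7 with the replicate block, with 0 to 2 on leaving out 1 library (2 without sham glia library 3). For NeuN their count of 11 became 17 with either replicate block, 21 without the libraries numbered 1 (65.5% of all genes, against 37.2% with all libraries), 6 at FDR below 0.05, and 7 to 19 on leaving out 1 library. For NeuN, 6969 of the 11983 genes with a mean of at least 10 CPM were called higher with the replicate block within each fraction. Without a block 4721 of them were. At FDR below 0.05, 3964 of all genes were called higher and 3019 lower without a block. The fit without both libraries of low RNA input, with 1 sham glia library, also called more of all genes than the fit with all libraries. The causes were not tested.

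Signs turned for several members and for Tef, among them Nr1d1, Nr1d2 and Tef in glia, which were called lower there with the replicate block. Over the alternatives, Usp2 (-1.04 to 0.83), Ciart (-1.20 to 1.52) and Bhlhe41 (-0.40 to 1.06) in glia and Timeless (-0.047 to 0.18) in neurons also turned, where no fit called them. In neurons Cry1 (0.0041) was at -0.016 with DESeq2's size factors, -0.015 with its test, -0.023 with the CPM filter, -0.017 in the separate fit, -0.072 without a filter and at -0.56 without the libraries numbered 1, where Clock was at -0.048, Per1 at -0.21 and Per2 at -0.24. Clock was at -0.027 without a filter. In glia Npas2 (0.02) was at -0.062 with DESeq2's size factors, -0.064 with its test, -0.059 with the covariate for low RNA input, -0.0053 without a filter and -0.046 without the libraries numbered 1, where Arntl was at 0.31. Without both libraries of low RNA input, which leaves 1 sham glia library taken to vary like the other groups, Arntl was at 0.15, Per2 at 0.23, Nr1d1 at 0.40, Nr1d2 at 0.41 and Tef at 0.54 in glia. For NeuN, Per1 was at 0.12 and 0.34, and Nr1d1 at 0.31 and 0.56, without the low-input libraries and without those numbered 1. Nr1d1 was also at 0.13 with the covariate and 0.031 with the pool as a block, and Cry1 at -0.0028 with the CPM filter and -0.091 with the pool.

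Leaving out 1 library gave, in neurons, -0.093 to 0.15 for Clock, -0.12 to 0.30 for Npas2, -0.15 to 0.63 for Per1, -0.27 to 0.41 for Per2 and -0.40 to 0.51 for Cry1. In glia it gave -0.41 to 0.26 for Arntl, -0.10 to 1.14 for Clock, -0.34 to 0.23 for Npas2, -1.03 to 0.087 for Per2, -0.49 to 0.72 for Cry2, -1.34 to 0.35 for Nr1d1, -1.49 to 0.27 for Nr1d2 and -1.55 to 0.37 for Tef. For NeuN it gave -0.13 to 0.54 for Clock, -0.41 to 0.21 for Per1, -0.24 to 0.46 for Cry1, -0.53 to 0.33 for Nr1d1 and -0.22 to 0.64 for Nr1d2. Without sham glia library 3 the median log2 fold change of all genes in glia was 0.76. Per3 kept its direction in both cell types under every alternative run, from -1.78 to -1.26 in neurons and from -1.51 to -0.51 in glia on leaving out 1 library; its weakest glial value, without both libraries of low RNA input, was -0.44.

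With 2 sham glia libraries, differences of the size of 1 SE (0.34 to 0.62 for members in glia) could not be resolved.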
